A study of Rattus norvegicus with 6 samples.

Results

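The genes described here are 4 erythroid globin genes (Hbb, Hbb-b1, Hba-a3 and Hbe1), 2 globin genes of nervous and other tissue (Ngb and Cygb), and Alas2, an enzyme gene of red cell heme synthesis. They were taken by symbol from the probe sets for which the platform annotation names exactly 1 gene. Each of the 7 had 1 such probe set, and 14506 genes had at least 1. The erythroid globins had been picked because they read higher on the C1q arrays, so their difference between the groups is given as a description with no test. Alas2, Ngb and Cygb were added by function.

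RNA was measured in primary cortical neurons that were prepared from Sprague-Dawley rat embryos at day 18 and kept in NB-N2 medium for 3 days. The 6 one-colour arrays carried RNA from 3 samples of untreated neurons and from 3 samples of neurons exposed to C1q, the recognition protein of the classical complement pathway, at 10 nM for 3 h. No genotype, transgene or other agent is given for either group. The comparison asks how C1q alters neuronal transcripts, a question the title ties to neuroprotection.

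Hemoglobin carries oxygen in red cells as a tetramer of alpha-type and beta-type globin chains, each holding a heme. Beta-type genes stand side by side in 1 cluster and alpha-type genes in another. Embryonic members such as Hbe1 are used in early red cells before later chains take over. Neuroglobin (Ngb) is a heme protein of neurons, and cytoglobin (Cygb) occurs in fibroblast-like cells and in some neurons. Low levels of hemoglobin chains have been described in neurons as well, and blood retained in freshly dissected tissue is another known source of globin RNA.

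In the RefSeq gene order of the GRCr8 assembly, Hbb-b1 lies between Hbb-bs and Hbbl1, Hbb between Hbb-b2 and Hbe1l-ps1, and Hbe1 next to Hbe2. Hba-a3 lies next to Hbq1 in the alpha cluster. The 120 bases before the annotated start of the 4 erythroid globins are given here, with the window of Ngb beside them. They are shown since untreated array 1 lay below and untreated array 2 above the group mean for each of these genes. The share of all probe sets with this order was not computed, and nothing on shared control is read from it. Sequences are from RefSeq, build GRCr8, written 5′ to 3′ on the strand of the gene. Capitals mark the CCAAT box, the motif CACCC, the GATA-type motif GATAA and the TATA-type motif ATAAA, each searched on both strands and with overlaps allowed.
Hbb, chr1:167663722-167663841, minus strand: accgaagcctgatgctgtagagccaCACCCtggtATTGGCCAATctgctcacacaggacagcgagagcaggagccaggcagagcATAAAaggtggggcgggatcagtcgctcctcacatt
Hbb-b1, chr1:167643521-167643640, minus strand: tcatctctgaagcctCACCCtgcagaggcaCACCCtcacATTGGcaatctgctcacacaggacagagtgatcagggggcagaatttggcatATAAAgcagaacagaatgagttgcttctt
Hbe1, chr1:167696281-167696400, minus strand: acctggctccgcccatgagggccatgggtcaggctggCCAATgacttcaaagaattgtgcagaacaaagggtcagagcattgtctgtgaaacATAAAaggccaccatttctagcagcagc
Hba-a3, chr10:15816944-15817063, minus strand: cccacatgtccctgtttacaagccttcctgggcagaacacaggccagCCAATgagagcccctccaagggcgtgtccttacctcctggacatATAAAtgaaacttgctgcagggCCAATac
Ngb, chr6:112480787-112480906, minus strand: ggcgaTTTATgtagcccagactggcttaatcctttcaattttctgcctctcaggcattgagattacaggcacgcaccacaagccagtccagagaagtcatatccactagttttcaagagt

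All 4 erythroid windows held the CCAAT box and the TATA-type motif. The motif ATAAA began 36 bases before the start in Hbb, 29 in Hbb-b1 and Hba-a3, and 28 in Hbe1. In Hbb, CCAAT occurred on both strands in direct succession, seen as ATTGGCCAAT, whereas Hbb-b1 carried it only in reverse, as ATTGG. The motif CACCC, known from beta-globin promoters, occurred once in Hbb and at 2 places in Hbb-b1 and was not in the windows of Hba-a3 and Hbe1. The Ngb window held ATAAA in reverse, 115 to 111 bases before the start, and none of the other motifs. Of 33469 RefSeq windows of this length, 19.9% held the CCAAT box, 29.5% the motif CACCC, 11.2% the motif GATAA and 21.5% the motif ATAAA. The motif GATAA was in none of the 6 windows searched, those 5 and the window of Alas2.

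The deposited values are intensities on a linear scale. All 7 probe sets passed the filter on dim signals, at an intensity of 94.4. Ngb lay nearest to it, and signal over background is unknown. The neuronal markers Dcx, Tubb3 and Stmn2 read 8601 ± 336, 8078 ± 408 and 7167 ± 242 in untreated cells (SD, n = 3 each), and all 12 neuronal markers on the array passed the filter. Array medians ran from 147 to 155, and pairwise correlations of the arrays over the tested probe sets were 0.989 to 0.996.

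Hbb, which encodes a beta-globin chain, read 889, 1055 and 965 on the untreated arrays and 1083, 1167 and 1216 on the C1q arrays, here and throughout in the order of array numbers 1, 2 and 3. Every C1q array was above every untreated array, though C1q array 1 exceeded untreated array 2 by little. The means were 970 ± 83.2 and 1155 ± 67.3 (SD, n = 3 each), a log2 fold change of 0.25 with a standard error of 0.068 on the scale of log2(intensity + 16).

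Hbb-b1, a second beta-globin gene, read 786, 934 and 825 untreated and 949, 1043 and 967 after C1q. Untreated array 1 was again the lowest and untreated array 2 the highest of its group, and the groups did not overlap. The log2 fold change was 0.22 with a standard error of 0.068.

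Hba-a3, of the alpha cluster, read 881, 940 and 864 untreated and 954, 1055 and 1012 after C1q. The groups did not overlap here either, and the gap between untreated array 2 and C1q array 1 was small once more. Its log2 fold change, 0.17 with a standard error of 0.057, was the lowest of the 4 erythroid globins.

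Hbe1, the embryonic epsilon-type globin gene, read 261, 406 and 364 untreated and 391, 405 and 477 after C1q. Its groups overlapped, since untreated array 2 exceeded 2 of the C1q arrays. The low value of untreated array 1 set much of the difference between the means, 343 ± 74.9 and 424 ± 46.4 (SD, n = 3 each). The log2 fold change was 0.31 over all arrays, 0.13 without untreated array 1 and 0.44 without untreated array 2.

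**Figure D1:**
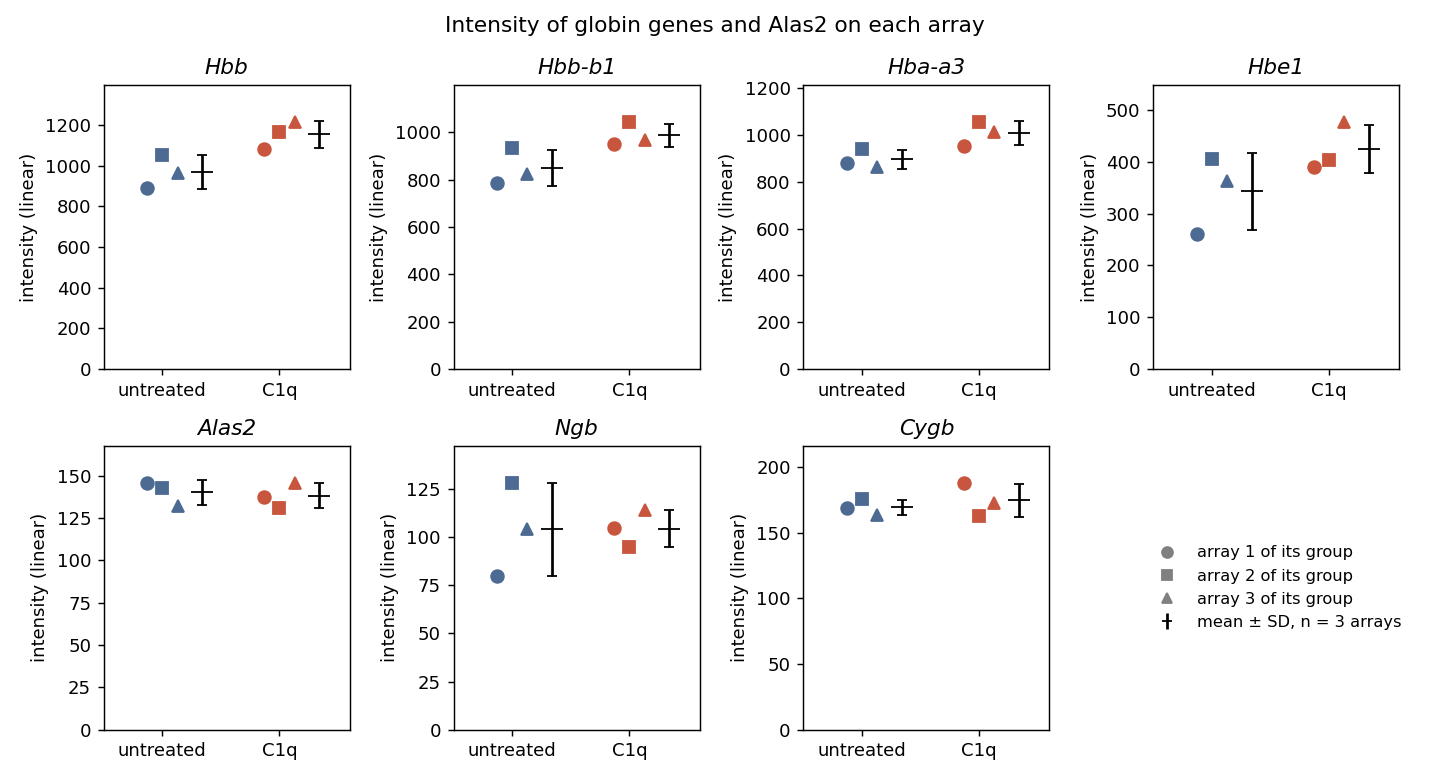
Linear intensity of the 7 genes on each of the 6 arrays, 1 panel per gene with its own axis from 0, with the mean and SD of 3 arrays beside each group. Hbb, Hbb-b1 and Hba-a3 lie higher on all 3 C1q arrays than on any untreated array, while the groups overlap for Hbe1, Alas2, Ngb and Cygb.

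Thus 3 of 4 erythroid globin probe sets had every C1q array above every untreated array, a pattern seen in 1.30% of the 17529 probe sets tested and in 4.42% in the other direction. The genes were chosen on this contrast, so nothing is read from that count. It was 0 of 4 with quantile normalization (3.84% of all probe sets) and 4 of 4 with median centring (2.41%). After quantile normalization Hbb read 1089.2 on untreated array 2 and 1088.8 on C1q array 1. The order of those 2 arrays therefore turned on the scaling. The direction of the mean difference stayed the same for the 4 genes under the 16 alternatives tried. Nothing is read from this, since the genes were chosen for that direction. Alternatives that changed only the filter, the variance model or the replicate block also leave the mean difference as it is. RNA of more globin-bearing cells and more globin RNA per cell cannot be told apart in such bulk samples.

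The remaining globin genes with a probe set that names 1 gene showed no such separation. Hbg1, the gamma-type gene of the beta cluster, read 71.5, 70.1 and 72.2 untreated and 60.6, 67.4 and 74.4 after C1q. Hbe2, a second epsilon-type gene, read 33.8, 33.7 and 41.1 untreated and 31.3, 26.9 and 35.2 after C1q. Both lay under the filter and were not tested. Mb, which encodes the muscle oxygen store myoglobin, read 120 ± 16.8 and 126 ± 9.18 (SD, n = 3 each), with overlapping groups.

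The array also held 3 probe sets whose annotation lists 2 globin genes each, from which no gene is named. They were examined after their values were seen. Probe set 10741756, of the alpha cluster, read 8734, 8708 and 8403 on the untreated arrays and 9409, 9251 and 9383 on the C1q arrays. Probe set 10741778, annotated to the same pair, read 7539, 7443 and 7253 against 8184, 8016 and 8110. With the values as deposited, untreated array 1 was not the lowest of its group on either one, in contrast to Hbb, Hbb-b1 and Hbe1. With quantile normalization untreated array 1 was the lowest on both, at 8314 and 7185, so this contrast depended on the scaling.

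The fold changes of these 2 alpha-type probe sets were 1.08 and 1.09, and their groups did not overlap with the values as deposited, with quantile normalization or with median centring. Probe set 10724311, of the beta cluster, read 1198, 1415 and 1357 against 1490, 1512 and 1601, a fold change of 1.16 with no overlap under the same 3 scalings. Close copies of a globin gene can bind the same probes, so these 3 probe sets and the members are not independent measures of C1q exposure.

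Alas2, which encodes the red cell form of the first enzyme of heme synthesis, read 146, 143 and 132 untreated and 137, 131 and 146 after C1q. The groups overlapped almost fully, and the fold change was 0.987 (95% interval 0.856 to 1.14).

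Ngb read 80.1, 128 and 104 untreated and 105, 94.9 and 114 after C1q. The spread among the untreated arrays took in all C1q arrays. The means were 104.2 ± 24.1 and 104.5 ± 9.58 (SD, n = 3 each), and the fold change was 1.01 (95% interval 0.815 to 1.26). The sign of its log2 fold change rested on single arrays, at -0.13 without untreated array 1 and 0.16 without untreated array 2.

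Cygb read 169, 175 and 164 untreated and 188, 163 and 173 after C1q. C1q arrays 1 and 2 were the highest and the lowest of all 6. The fold change was 1.03 (95% interval 0.897 to 1.18).

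None of Alas2, Ngb and Cygb was called in the limma fit over all 17529 probe sets (adjusted p = 0.9999 for each), where 0.00% were called higher and 0.00% lower and 437 had an unadjusted p under 0.05. Over the alternatives their lowest adjusted p in limma was 0.755, 0.782 and 0.420. The intervals thus bound a difference least tightly for Ngb.

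**Figure D2:**
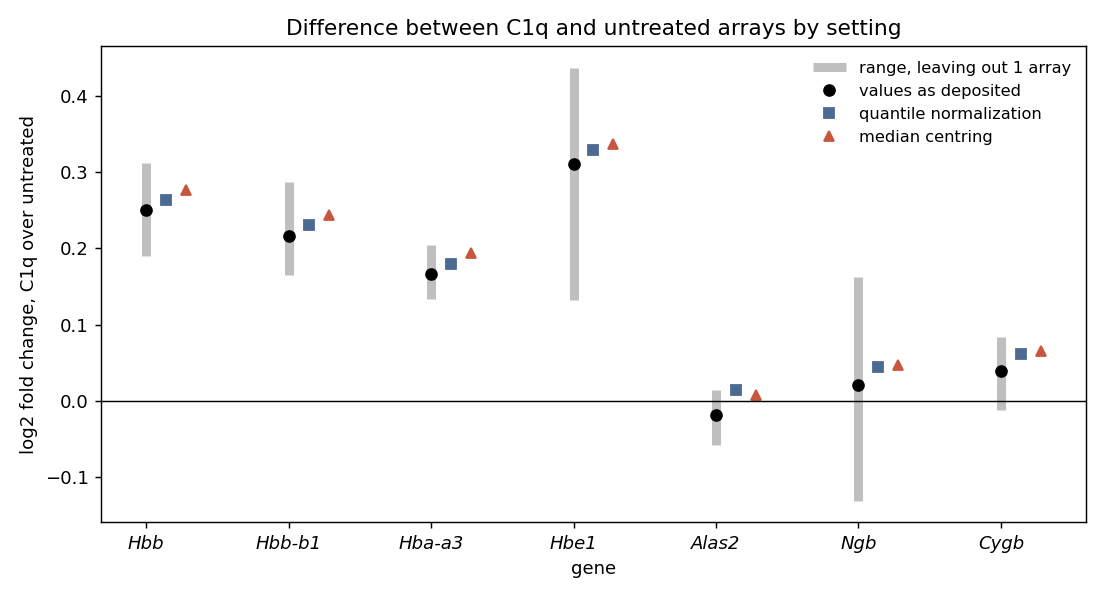
Log2 fold change of C1q over untreated arrays, on the vertical axis, for each gene with the values as deposited (circle), after quantile normalization (square) and after median centring (triangle); grey bars span the values found when 1 array was left out. The erythroid globins stay above 0 throughout, Hbe1 with the widest bar (0.13 to 0.44), and the bars of Alas2, Ngb and Cygb cross 0.

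Deviations from the group mean on the log2 scale were used to describe how the genes varied among arrays treated alike. Hbb deviated by -0.12 on untreated array 1 and 0.12 on untreated array 2, and Hbb-b1 by -0.10 and 0.14. Hbe1 moved further, at -0.36 and 0.25. Hba-a3 deviated least, at -0.02 and 0.07.

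Over the 6 arrays the deviations of Hbb correlated with those of Hbe1 at r = 0.92, of Hbb-b1 at r = 0.80 and of Hba-a3 at r = 0.71. Spearman's rho was 0.94, 0.94 and 0.77 in that order. Of 9645 genes tested that are no members, 0.985%, 3.51% and 5.69% had as high an r with Hbb. The values are descriptive, as the genes share arrays, scaling and, for the beta-type genes, similar sequence, and deviations from 2 group means leave few free values.

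Ngb followed a similar course, with r = 0.83 to Hbb and r = 0.94 to Hbe1, while its means were 104.2 untreated and 104.5 after C1q. For Cygb and Alas2, r to Hbb was -0.16 and 0.05. Untreated arrays 1 and 2 were the farthest from the median for Hbb, so the same deviations were also correlated over the other 4 arrays. There r was 0.34 for Hbb with Hbb-b1, 0.66 with Hba-a3, 0.78 with Hbe1 and 0.32 with Ngb. Between Ngb and Hbb-b1 it was 0.64 over all arrays and -0.77 over these 4. The group means behind these deviations still included untreated arrays 1 and 2. These values therefore do not show r with those arrays removed, and how much they carried was not tested.

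**Figure D3:**
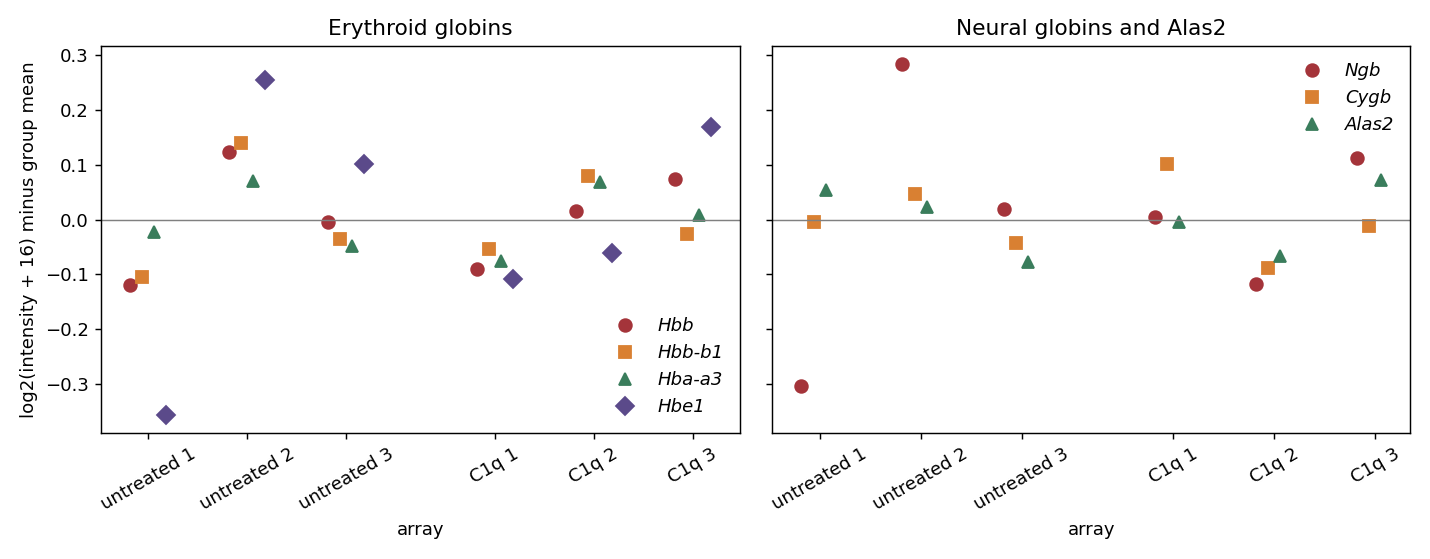
Deviation of log2(intensity + 16) from the mean of its group, on the vertical axis, for each of the 6 arrays, with 1 symbol per gene. All 4 erythroid globins and Ngb lie below 0 on untreated array 1 and above 0 on untreated array 2, while Cygb lies close to 0 on both (-0.004 and 0.047) and Alas2 lies above 0 on both.

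The 5 other genes most like Hbb in these deviations were Abo (r = 0.995), Creb3l1 (0.994), Slc41a3 (0.991), Srsf9 (0.991) and Zfpm1 (0.990), all over 6 arrays. Zfpm1, which encodes a partner of GATA factors, also stands in the list of erythroid regulators. Creb3l1 read 135 ± 12.7 untreated and 111 ± 5.81 after C1q, and Srsf9 read 495 ± 29.1 and 486 ± 15.7 (SD, n = 3 each). Neither had a higher mean on the C1q arrays. Slc41a3 and Zfpm1 were also lower, at fold changes of 0.922 and 0.990, and Abo was higher, at 1.05. For Creb3l1 every C1q array lay below every untreated array, a pattern of 4.42% of the 17529 probe sets tested. With quantile normalization the ranks of the 5 among genes like Hbb were 19, 76, 248, 7 and 237, so that this order depended on the scaling.

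Counts of higher and lower means depend on the scaling over the whole array. Among the 17529 probe sets tested, 36.7% had the higher mean on the C1q arrays as deposited, 50.8% with quantile normalization and 55.4% with median centring, and each list is to be read beside these shares. Genes of heme synthesis other than Alas2 were all above the filter on this array, and none passed the test. Of 10, 4 means were higher and 6 lower after C1q, at a median log2 fold change of -0.01, beside -0.02 over all probe sets tested. With quantile normalization or median centring 7 were higher and 3 lower. Alas1, the form of the first enzyme used outside red cells, read 709 ± 17.0 and 690 ± 14.7 (SD, n = 3 each). Tmem14c, Ppox and Cpox, which serve the late mitochondrial steps, had fold changes of 1.01, 0.997 and 0.956.

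Of 6 tested genes of heme breakdown, transport and scavenging, 3 means lay on either side, or 4 higher and 2 lower with median centring, and none passed. Lrp1, a receptor that takes up heme bound to hemopexin among many ligands, read 2066 ± 137 and 2127 ± 142 (SD, n = 3 each). Hmox2, the constitutive heme oxygenase, had a fold change of 1.04, the heme transporter gene Slc48a1 0.983, and Blvrb, a biliverdin reductase gene, 0.941. Of 9 tested genes of iron uptake and storage 3 means were higher and 6 lower (5 and 4 with quantile normalization, 7 and 2 with median centring), and none passed. Fold changes were 0.983 for Ftl1 and 0.945 for Fth1, the light and heavy ferritin chains, 1.00 for Aco1 and 0.988 for Ireb2, both iron regulatory proteins.

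Transcription factors and receptors of red cell development were read as the next group. Of 12 tested, 4 means were higher and 8 lower and none passed, at a median log2 fold change of -0.02, with 7 higher and 5 lower under either rescaling. The 4 with the highest means, Bcl11a, Ldb1, Kit and Sox6, are also used by cortical neurons or their progenitors. Bcl11a, which holds back embryonic and fetal globin genes in red cells, read 3949 ± 197 and 3925 ± 25.1 (SD, n = 3 each). Fold changes were 0.980 for Ldb1, 0.969 for Kit and 1.01 for Sox6.

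Of 7 tested genes of the hypoxia response, 2 means were higher and 5 lower, and none passed. With either rescaling 5 were higher and 2 lower. Ldha, Pgk1, Bnip3 and Pdk1 had fold changes of 1.01, 0.997, 0.997 and 1.01.

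Markers of other cells were read in the same fit. Of 21 red cell membrane and cytosol genes listed, 17 were on the array and 10 tested, with 4 means higher and 6 lower (6 and 4 with quantile normalization, 7 and 3 with median centring) and none called. Their summed intensity ran from 11670 to 12460 on untreated and from 11748 to 12116 on C1q arrays. Most of that sum came from Prdx2, Add2, Bpgm and Epb41, which neurons also express. Slc4a1, the anion exchanger of the red cell membrane, read 49.4 ± 2.66 and 49.6 ± 2.57 (SD, n = 3 each), under the filter.

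Of the 7 red cell genes under the filter, 2 had every C1q array above every untreated array, with values as deposited and with either rescaling. They were singled out after their values were seen. Ahsp, which encodes a chaperone of free alpha-globin, read 21.0, 22.5 and 18.5 untreated and 25.3, 35.8 and 25.6 after C1q. Epb42, which encodes a protein of the red cell membrane skeleton, read 46.8, 44.5 and 46.3 untreated and 62.6, 61.4 and 65.7 after C1q. Of all 29215 deposited probe sets, 1.88% had this pattern with values as deposited. That share also takes in probe sets above the filter. The share that kept the pattern with both rescalings, or among probe sets under the filter alone, was not computed. Nothing is read from the count of 2. Slc4a1, Rhag, Car1, Car2 and Aqp1 had overlapping groups.

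Under the filter, 2 genes of the lists of other cells also had groups that did not overlap under any of the 3 scalings. They too were named after their values were seen, and they went in opposite directions. Of the 10 microglial and 9 endothelial markers on the array, 2 of each were above the filter. As deposited, 1.88% of all 29215 probe sets were higher in this way, and 4.42% of the 17529 tested were lower. The share under all 3 scalings was not computed, so nothing is read from the 2 genes. Trem2, a microglial receptor gene, read 58.7, 61.4 and 58.8 untreated and 64.3, 63.1 and 63.4 after C1q. Esam, which encodes an endothelial adhesion molecule, was lower on the C1q arrays, at 94.2, 73.6 and 94.8 against 95.4, 114 and 97.5 untreated.

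Above the filter, 2 of the 85 list genes tested had every C1q array above every untreated array under the same 3 scalings and were likewise named after their values were seen. The share of all tested probe sets with this pattern under all 3 scalings at once was not computed. Under each scaling alone it was 1.30% as deposited, 3.84% with quantile normalization and 2.41% with median centring. Nothing is read from the count of 2. Fech, which inserts iron into heme, read 241, 242 and 227 untreated and 243, 245 and 248 after C1q, and Dmtn, which encodes an actin-binding protein of the membrane skeleton that neurons also make, read 537 ± 21.2 and 568 ± 3.44 (SD, n = 3 each). Their fold changes were 1.03 and 1.06, and neither passed in limma (adjusted p = 0.9999 for both).

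The 9 leukocyte and platelet markers on the array, of 12 listed, summed to 588 to 747 untreated and 618 to 697 after C1q, and the 4 tested had 1 mean higher and 3 lower (after either rescaling, 3 and 1). Endothelial markers, 9 of 10 on the array, summed to 646 to 734 and 606 to 682, and the 10 microglial markers to 699 to 775 and 704 to 736. Mural and meningeal markers, 9 of 9, summed to 818 to 1031 and 863 to 948. The groups overlapped in each of these sums, and no marker of these lists read near 0, the lowest mean being 10.6. Of the tested markers 1 endothelial mean was higher and 1 lower, both microglial means were lower, and 2 mural and meningeal means lay on either side, with the same balance after either rescaling. Astrocyte and radial glia markers, 6 tested, had 4 means higher and 2 lower, again under all 3 scalings. The 12 neuronal markers had 2 higher and 10 lower, against 5 and 7 with quantile normalization and 6 and 6 with median centring. None of these markers was called in limma. The part of other cells in the globin values was not tested.

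**Figure D4:**
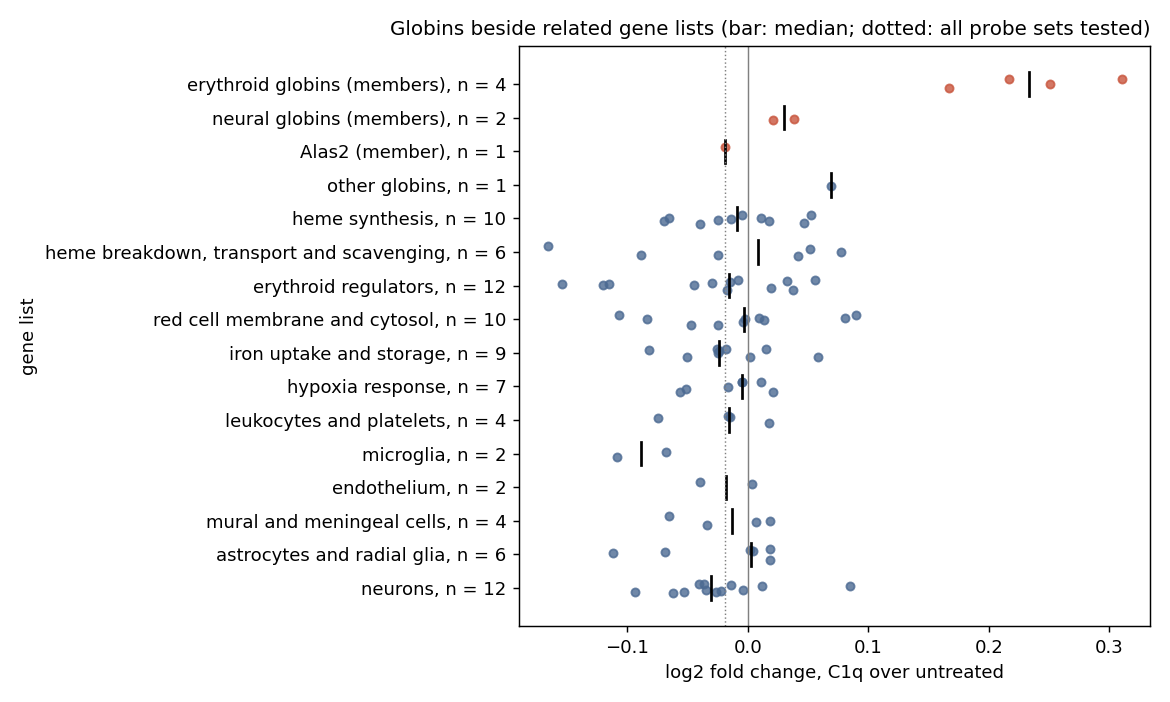
Log2 fold change of C1q over untreated arrays, on the horizontal axis, for each tested gene of the lists, with the members in red, a bar at the median of each list and a dotted line at the median of all probe sets tested (-0.02). The 4 erythroid globins, picked for higher values on the C1q arrays, lie between 0.17 and 0.31. The tested genes of every other list lie between -0.17 and 0.09. List genes under the filter are not drawn, and some lay outside that range, such as Epb42 at 0.36, Ahsp at 0.28 and Esam at -0.20. Nothing is read from the gap between the globins and the lists.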

How the data were processed

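Per the labels' protocols, the total RNA came from a column kit and was labelled as biotinylated cRNA for Affymetrix arrays. The authors deposited 1 intensity per probe set and array on a linear scale for 29215 probe sets; their summarisation, normalization and genome build were not given in the sources used here. Of these, 15310 name 1 gene, 323 several and 13582 none, and 15279 of the former matched RefSeq (GRCr8), with 0 symbols changed.

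Values were analysed as log2(intensity + 16). Tests covered the brightest 60% of probe sets by mean, with limma 3.58.1 (R 4.3.3; lmFit, eBayes with trend), with Benjamini-Hochberg adjustment and calls under 0.05. Fold changes are on this scale and understate those of dim genes. The script was tested on simulated data. Nothing states that arrays came from separate cultures, so p-values measure the spread between these samples, which may be technical. The number of arrays limits the precision.

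Members and lists were chosen with earlier results of these data known. The rule named all members, the other globins on the array, the 4 genes of highest mean in each companion list, and the 5 genes most correlated with Hbb in deviations from group means. A gene was read from its probe set of highest mean. Of 161 list symbols, 131 were on the array and 85 tested. Alternatives covered scaling, pseudocount, filter, variance model, array weights, a replicate block and leaving out each array.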

Additional observations from a re-analysis of the deposited data

How the results depend on the processing

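Quantile normalization, median centring, a pseudocount of 1 or 64, the brightest 40%, no intensity trend and robust variance each gave 0 calls higher and 0 lower. With array weights 130 probe sets were called higher and 317 lower, without the filter 0 and 1, and with the replicate number as a block 9 and 0. The array weights were 5.51 for untreated array 3 and 0.36 and 0.33 for untreated arrays 1 and 2. The untreated side of that fit thus rested mainly on untreated array 3, and nothing is read from its calls. Leaving out 1 array gave 0 to 28 higher and 0 to 10 lower, every one of these without untreated array 2. Whether same-numbered arrays belong together is not stated. They correlated in their deviations at 0.014, -0.45 and -0.13, and only C1q array 1 correlated best with its own number. Deviations sum to 0 within each group, so these values cannot show whether same-numbered arrays shared a culture or batch.

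The count of erythroid globins with no overlap between groups was 0 of 4 with quantile normalization and 3 to 4 when 1 array was left out. Alas2 changed sign to 0.015 with quantile normalization, 0.0076 with median centring and 0.045 with array weights, and ran from -0.057 to 0.014 when 1 array was left out, with positive values without untreated array 1 and without C1q array 2. On leaving out 1 array, Ngb ran from -0.13 to 0.16, with -0.036 without C1q array 3, and Cygb from -0.012 to 0.083. The cause of these changes was not tested. No depth or detection call was used, so Ngb, Hbg1 and Hbe2 may hold an unknown share of background.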
